A study of Mus musculus with 10 samples.

Results

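The genes described here are the cyclins *Ccnd1*, *Ccnd2*, *Ccnd3*, *Ccne1*, *Ccne2*, *Ccna2* and *Ccnb1* and the cyclin-dependent kinases (CDKs) *Cdk1*, *Cdk4* and *Cdk6*. They were taken by name as a list of 10 genes, and all 10 were found among the 18901 genes of the deposited expression table. RNA-sequencing was performed on 10 libraries of poly(A) RNA from 5 mouse lines, with 2 libraries for each line. The lines were derived from a cross of mf1 and 129 mice. Oct4-GFP mouse embryonic fibroblasts (MEF), which carry a green fluorescent reporter at the Oct4 locus, were sampled at passages 2 and 4 in DMEM with 10% FCS. The reprogrammed lines, sampled in KSR+LIF medium at passages 5 and 25, were pre-iPS cells, 'control' iPS cells and the 'Netrin-1-derived' iPS clones 1 and 2. All of the reprogrammed lines received Oct4, Sox2, Klf4 and c-Myc (OSKM) by retroviral infection. The 'Netrin-1-derived' clones were obtained in the presence of recombinant Netrin-1, a secreted ligand of dependence receptors. Pre-iPS cells are incompletely reprogrammed, with retroviral factors still expressed and no GFP from the Oct4 reporter. Each reprogrammed line was sampled at 2 passages of the same line, and the labels call only the 'Netrin-1-derived' lines clones. The p-values below, adjusted or exact, therefore compare lines and their passages and not independently derived lines.

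Cyclins are the regulatory subunits that switch CDKs on, and successive cyclins drive the successive phases of the cell cycle. D-type cyclins pair with Cdk4 and Cdk6 in response to growth factors and start the phosphorylation of the retinoblastoma protein, which releases E2F transcription factors. E-type and A-type cyclins then act with Cdk2 during S phase, and cyclin A2 and cyclin B1 act with Cdk1 in G2 and mitosis. Pluripotent stem cells are known for a short G1 phase and for weak dependence on D-type cyclins. In them the activity of Cdk2 with cyclins E and A is high through most of the cycle. Embryonic fibroblasts have a longer G1 phase gated by mitogens.

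The unit is the edgeR pseudo-count, a count of reads per gene rescaled by the authors as if all libraries were of 1 size. Whole reads could be recovered from it, which gave 38110410 to 52946856 reads on genes per library, and the 10 genes had between 328 and 37175 reads each, a counting error of 5.52% to 0.519%. The 2 MEF libraries differed from each other by little more than the sampling of reads (median chi-square of 0.752 over genes, against 0.455 by sampling alone), whereas the 2 passages of the other lines differed far more (6.46 to 10.1). The spread between the MEF libraries may therefore be technical. The summed level of 10 fibroblast markers was 2875616 to 3018914 in MEF, 22452 to 23176 in pre-iPS cells and 21544 to 35951 in iPS libraries. None of these markers was at 0 reads in any line, and the lines were kept on gelatin or on irradiated MEF. MEF also had more of 5 macrophage markers (11239 to 11287, against 565 to 1896 elsewhere) and of 4 smooth muscle markers (216935 to 219394, against 1124 to 11087), and the part of such cells in the MEF values was not tested. The summed level of 8 naive pluripotency markers was 35432 to 83400 in iPS libraries, 19245 to 20375 in pre-iPS cells and 186 to 206 in MEF. The sum hides single markers. By limma, 6 of the 8 were lower in pre-iPS than in iPS cells at an adjusted p under 0.05, beside 20.8% of all genes. Their median over the 8 was -2.16 on the log2 scale, and the largest decreases were those of Dppa3 (138-fold) and Esrrb (110-fold). *Xist*, transcribed from the inactive X chromosome of female cells, had 140 to 328 reads per library in clone 1 and the control line. It had 15713 to 50201 in clone 2, the pre-iPS line and MEF. The lines may thus differ in sex or in the state of the X chromosome, also among the iPS lines. None of the 10 genes is on a sex chromosome, and the part of such a difference in their values was not tested.

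The MEF differed from the iPS lines in most of these genes, the pre-iPS line differed from both, and the 'Netrin-1-derived' clones gave no called difference from the control line, except in *Ccnd2* when the passage was a replicate block. Differences were tested with limma on log2(value + 1) over the 17075 genes that reached a value of 10 in 2 or more libraries, which all 10 genes passed, and a gene was called at a Benjamini-Hochberg adjusted p under 0.05. In MEF against the 3 iPS lines, 7 of 10 genes were called, 1 higher and 6 lower, beside 79.3% of all genes tested (37.4% higher and 41.9% lower), and 4 of 10 were also changed at least 2-fold, beside 48.2%. The libraries of both groups did not overlap for the same 7 genes, beside 80.0% of all genes. In pre-iPS cells against the iPS lines, 7 of 10 were called, 3 higher and 4 lower, beside 39.6% of all genes (18.7% higher and 20.8% lower), but none reached a 2-fold change, beside 16.3%. The libraries did not overlap for 5 of the 10, beside 41.8% of all genes. In pre-iPS cells against MEF, 7 of 10 were called, 6 higher and 1 lower, beside 70.6% of all genes (36.4% higher and 34.2% lower), and 4 of 10 changed at least 2-fold, beside 43.2%. The libraries did not overlap for 8 of the 10, beside 87.5% of all genes. The share called was near the background for both comparisons with MEF and above it for pre-iPS against iPS, where the share without overlap was closer to it. Without the pre-iPS library at passage 5, 4 of 10 members and 4168 of all 17075 genes were called in pre-iPS against iPS. These 3 comparisons share libraries and are not independent of each other. In an exact permutation test of libraries, the 7 genes called in MEF against iPS gave p = 0.0357, the smallest possible. That test treats the libraries as independent, although they are passages of the same lines. In pre-iPS against iPS the 4 lower genes gave the same p. The 3 higher genes gave larger p-values, 0.0714 for *Ccnd1* and 0.107 for *Ccnd2* and for *Cdk6*. For pre-iPS against MEF, with 2 libraries each, this test cannot give a p under 0.333. *Ccnd3*, *Ccne2* and *Cdk4* were the genes not called in each of the 3, although *Cdk4* was called in both comparisons with MEF, in opposite directions, after housekeeping scaling and after quantile normalization.

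The scaling of the libraries matters for the comparisons with MEF. The deposited values summed to 55886953 and 56073322 in the MEF libraries and to 39745507 to 41892877 in the other 8, so that a value of a MEF library is a smaller share of its total. The median log2 fold change of all genes in MEF against iPS was -0.09 as deposited and 0.31 after scaling to *Gapdh*, *Actb*, *Hprt* and *Tbp*, and the share of higher genes among those called rose from 47.1% to 61.2%. In pre-iPS cells against MEF the median moved from 0.06 to -0.34 and the share of higher genes from 51.6% to 34.7%. The housekeeping genes themselves differed between the lines, with *Gapdh* at 32791 ± 757 (SD, n = 2) in MEF and 64012 ± 2600 (SD, n = 6) in iPS libraries. With that scaling, 2 of the 10 cyclin and CDK genes were higher and 5 lower in MEF against iPS, and 4 were higher and 2 lower in pre-iPS cells against MEF. In bulk RNA, fewer cells in a phase of the cycle and less RNA per cell cannot be told apart.

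**Figure D1:**
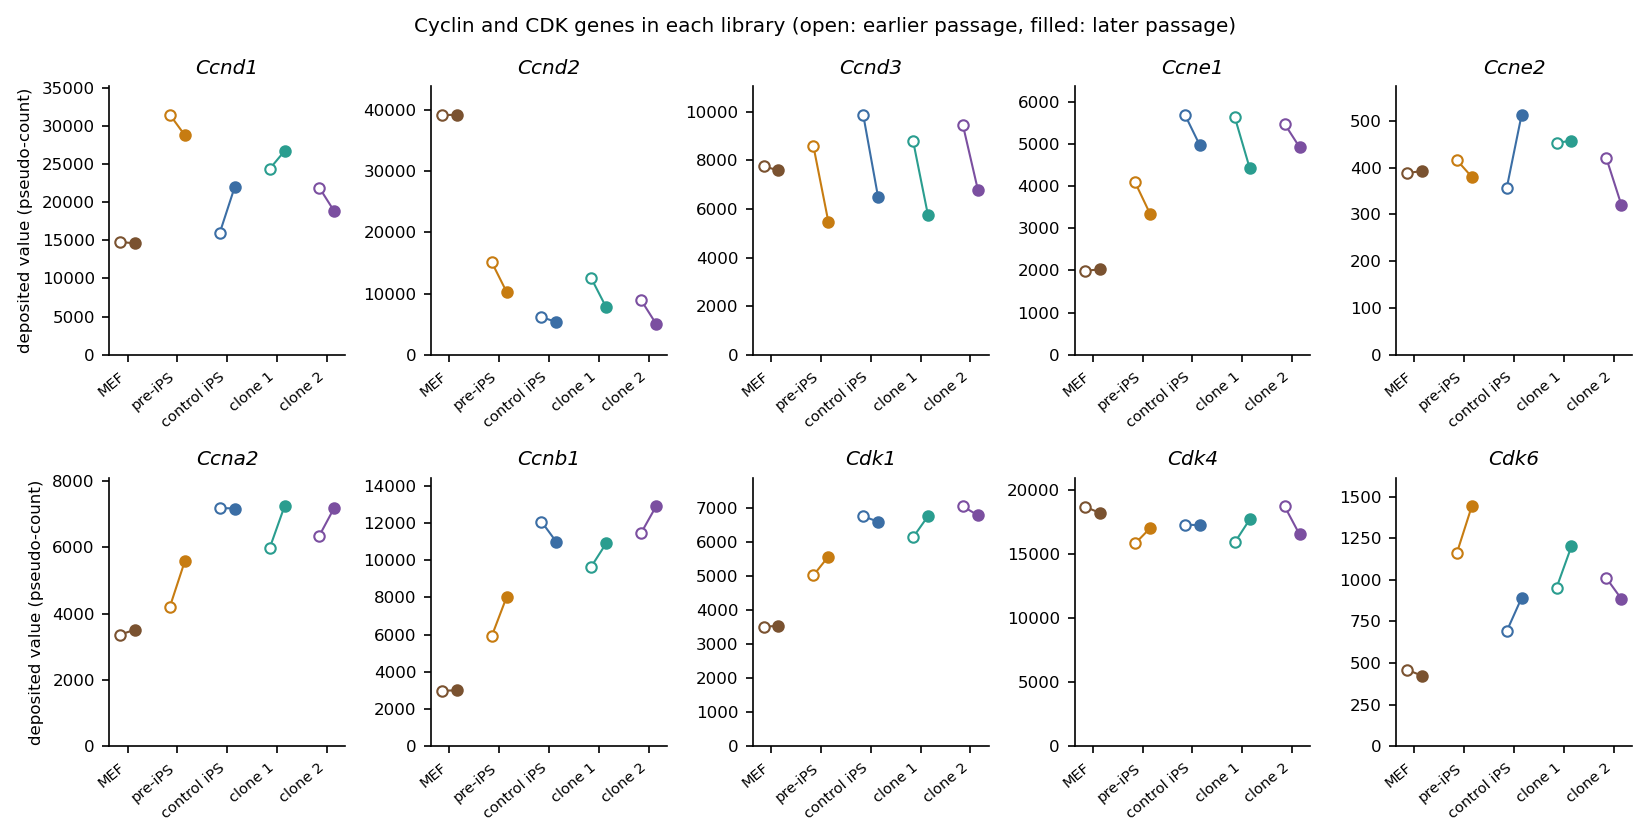
Deposited value (pseudo-count, linear axes from 0) of each of the 10 genes in each of the 10 libraries, by line. The open point is the earlier passage (2 in MEF, 5 elsewhere) and the filled point the later one (4 in MEF, 25 elsewhere). *Ccnd2* is highest in MEF at 39188 and 39240, *Ccne1*, *Ccna2*, *Ccnb1* and *Cdk1* are lowest in MEF and intermediate in pre-iPS cells, and *Cdk4* lies between 15795 and 18695 in every library.

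*Ccnd1* (chr7:144929931-144939925, minus strand), the cyclin D that classically responds to mitogens, was highest in pre-iPS cells and lowest in MEF. Its value was 14787 and 14573 in MEF at passages 2 and 4, and 31439 and 28758 in pre-iPS cells at passages 5 and 25. It was 15954 and 21964 in the control iPS line, 24331 and 26687 in clone 1 and 21871 and 18772 in clone 2, in the order of the passages. The pre-iPS libraries lay above all 6 iPS libraries and the MEF libraries below all 6. Pre-iPS cells were 2.05-fold above MEF (log2 1.03, SE 0.14, limma, adjusted p = 0.000224) and 1.41-fold above iPS cells (log2 0.50, SE 0.12, adjusted p = 0.0109), and MEF were 1.45-fold below iPS cells (log2 -0.54, SE 0.12, adjusted p = 0.00268). Without the pre-iPS library at passage 5, the call against iPS was lost (log2 0.43, adjusted p = 0.0942), and with housekeeping scaling that of MEF against iPS was lost (log2 -0.15, adjusted p = 0.289). Part of the *Ccnd1* exons, 21.6% of their 50-base stretches, is shared with the neighbouring gene LTO1.

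*Ccnd2* (chr6:127125162-127152193, minus strand), which pairs with the same kinases, had the opposite pattern to *Ccnd1* in MEF. MEF stood at 39188 and 39240, and pre-iPS cells at 15158 and 10266. The iPS values were 6157 and 5324 in the control line, 12486 and 7725 for clone 1 and 8912 and 5042 for clone 2. Every MEF library was thus above every other library, while the pre-iPS libraries overlapped with clone 1. MEF were 5.43-fold above iPS cells (log2 2.44, SE 0.25, limma, adjusted p = 2.05e-05) and 3.14-fold above pre-iPS cells (log2 -1.65 for pre-iPS against MEF, SE 0.30, adjusted p = 0.00116). Pre-iPS cells were 1.73-fold above iPS cells (log2 0.79, SE 0.25, adjusted p = 0.035). That last call was lost in a fit of the compared lines only (adjusted p = 0.0608) and without any 1 of 6 libraries, namely either library of MEF or of the control line, pre-iPS at passage 5 and clone 1 at passage 25, with a value of 0.51 (adjusted p = 0.285) without pre-iPS at passage 5. With the passage as a replicate block it was called (log2 0.79, SE 0.11, adjusted p = 0.0011). Among the iPS lines clone 1 had the highest mean of *Ccnd2*, and its summed fibroblast markers were 30350 to 35951, against 21544 to 30356 in the control line and 25424 to 29249 in clone 2. The part of fibroblasts in the *Ccnd2* value was not tested.

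*Ccnd3* (chr17:47505051-47599691, plus strand) varied more between passages than between lines. Its value was 7755 and 7598 in MEF, 8603 and 5484 in the pre-iPS line, 9884 and 6477 in the control line, 8820 and 5747 for clone 1 and 9465 and 6804 for clone 2. The ranges of all 5 lines overlapped. MEF and iPS cells differed by -0.01 on the log2 scale (SE 0.24, limma, adjusted p = 0.985), and pre-iPS and iPS cells by -0.17 (SE 0.24, adjusted p = 0.617). With the passage as a replicate block, which takes up the difference between passages, pre-iPS cells were lower than iPS cells (log2 -0.17, SE 0.06, adjusted p = 0.0456).

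The make-up of the D-type cyclins differed accordingly. Levels of different genes were compared per kilobase of annotated exon (GENCODE M21, GRCm38), where the 3 genes together amounted to 8160 ± 40.8 in MEF, 8550 ± 1020 in pre-iPS cells, 5570 ± 565 in the control line, 7320 ± 252 for clone 1 and 5980 ± 971 for clone 2 (SD, n = 2 each). On this scale *Ccnd2* made up 51.1% ± 0.303 of the D-type cyclin level in MEF, and *Ccnd1* 38.2% ± 0.202. In the other lines *Ccnd1* made up most of it, 75.1% ± 4.26 in pre-iPS cells, 71.8% ± 8.91 in the control line, 74.1% ± 7.38 for clone 1 and 72.4% ± 3.97 for clone 2. The *Ccnd2* share was 15.7% ± 2.43 in pre-iPS cells and 11.1% to 14.6% in the iPS lines. The MEF libraries did not overlap with any other library in either share. *Ccnd3* took 10.7% in MEF, 9.28% in pre-iPS cells and 11.3% to 17.1% in the iPS lines. The share of *Ccnd1* was higher at passage 25 than at passage 5 in all 4 lines sampled then, for example 78.2% against 65.5% in the control line. Its own value did not rise in all of them. The log2 difference was 0.46 in the control line and 0.13 for clone 1, but -0.13 in pre-iPS cells and -0.22 for clone 2.

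**Figure D2:**
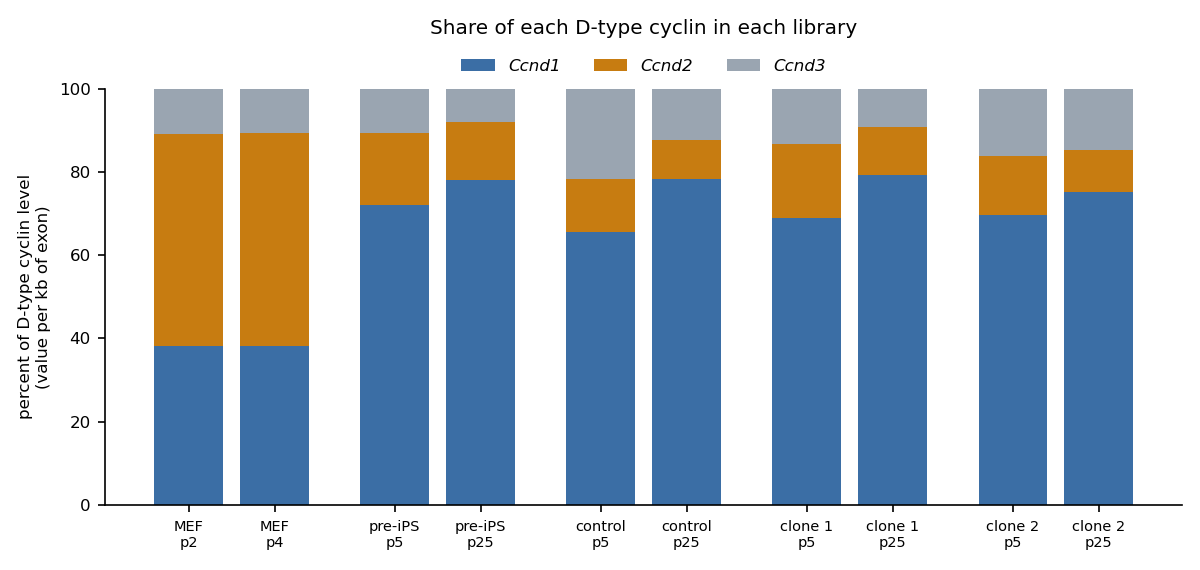
Percent of the D-type cyclin level (deposited value per kilobase of exon) taken by *Ccnd1*, *Ccnd2* and *Ccnd3* in each library, with the passage under each bar. *Ccnd2* takes 50.9% and 51.3% in the MEF libraries and 9.48% to 17.7% in the other 8 libraries.

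*Ccne1* (chr7:38097984-38107534, minus strand) encodes cyclin E1, which activates Cdk2 at the entry into S phase. MEF stood at 1994 and 2025, and pre-iPS cells at 4092 and 3346. The 6 iPS libraries ranged from 4429 to 5697 with a median of 5226. The 3 kinds of cells did not overlap, in the order MEF, pre-iPS and iPS, while the 3 iPS lines overlapped with each other. MEF were 2.57-fold below iPS cells (log2 -1.36, SE 0.12, limma, adjusted p = 5.94e-06). Pre-iPS cells were 1.40-fold below iPS cells (log2 -0.48, SE 0.12, adjusted p = 0.0106) and 1.84-fold above MEF (log2 0.88, SE 0.14, adjusted p = 0.000482). Without the pre-iPS library at passage 25 the difference from iPS cells was -0.34 and not called (adjusted p = 0.108).

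*Ccne2* (chr4:11191351-11204779, plus strand), its paralog, was expressed at a low level with no called difference. It was 389 and 393 in MEF, 416 and 380 in the pre-iPS line, and 321 to 513 with a median of 437 over the iPS libraries. MEF and pre-iPS cells lay within the range of the iPS libraries, while clone 1 (453 and 458) overlapped with the control line alone. Its log2 difference from iPS cells was -0.09 (SE 0.16, limma, adjusted p = 0.634) in MEF and -0.06 (SE 0.16, adjusted p = 0.795) in pre-iPS cells. Per kilobase of exon *Ccne2* was 12.9% ± 0.0427 of the E-type cyclin level in MEF, 7.58% ± 0.548 in pre-iPS cells and 5.12% to 6.53% in the iPS lines (n = 2 each). Of its 50-base stretches, 14.4% are shared with Ints8.

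*Ccna2* (chr3:36564865-36572150, minus strand), which encodes the cyclin A of S phase and G2, and *Ccnb1* (chr13:100778650-100786570, minus strand), the mitotic cyclin B1, were lowest in MEF. *Ccna2* was 3367 and 3514 in MEF, 4209 and 5586 in the pre-iPS line and 5969 to 7240 with a median of 7181 in iPS libraries. *Ccnb1* was 2976 and 3001 in MEF, 5900 and 8010 in the pre-iPS line and 9652 to 12892 with a median of 11216 in iPS libraries. For both genes the order was MEF, pre-iPS and iPS, without overlap. *Ccna2* was 1.99-fold lower in MEF than in iPS cells (log2 -0.99, SE 0.12, limma, adjusted p = 5.04e-05) and 1.41-fold lower in pre-iPS than in iPS cells (log2 -0.50, SE 0.12, adjusted p = 0.00998). The *Ccnb1* differences were the largest decreases among the 10 genes in both comparisons, 3.77-fold in MEF (log2 -1.92, SE 0.11, adjusted p = 7.35e-07) and 1.64-fold in pre-iPS cells (log2 -0.71, SE 0.11, adjusted p = 0.00165). Pre-iPS cells exceeded MEF 2.30-fold in *Ccnb1* (adjusted p = 7e-05) and 1.41-fold in *Ccna2* (log2 0.50, SE 0.14, adjusted p = 0.0123).

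The *Ccna2* calls that involve pre-iPS cells rested on single libraries. Without the pre-iPS library at passage 5 the value against iPS was -0.29 (limma, adjusted p = 0.109). Without the pre-iPS library at passage 25 the value against MEF was 0.29 (adjusted p = 0.0858), without the MEF library at passage 2 it was 0.46 (adjusted p = 0.0666), and with housekeeping scaling it was 0.08 (adjusted p = 0.635). *Ccnb1* kept its calls in these 3 comparisons under every alternative run, except that its difference between pre-iPS and iPS cells is under 2-fold. Of its 50-base exon stretches, 23.4% also occur in 6 other annotated genes, among them Ccnb1-ps, so that its level is uncertain where the counting split such reads.

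*Cdk1* (chr10:69335146-69352938, minus strand), the kinase of both these cyclins, followed the same order. It was 3509 and 3528 in MEF, 5011 and 5564 in the pre-iPS line and 6127 to 7040 with a median of 6749 in iPS libraries. The groups did not overlap. MEF were 1.89-fold below iPS cells (log2 -0.92, SE 0.06, limma, adjusted p = 1.96e-06), pre-iPS cells 1.26-fold below iPS cells (log2 -0.34, SE 0.06, adjusted p = 0.00414) and 1.50-fold above MEF (log2 0.59, SE 0.08, adjusted p = 0.000181). With housekeeping scaling the last difference was 0.17 (adjusted p = 0.0899). None of its 50-base stretches occurs in another annotated gene.

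Promoter windows of 300 bases (250 before and 50 after a RefSeq transcription start, GRCm38.p6) were given for 6 of the 10 genes, namely *Cdk1*, *Ccnb1*, *Ccne1*, *Ccnd3*, *Cdk4* and *Cdk6*. Those of *Cdk1* and *Ccnb1*, which stood in the same order over the lines, and of *Cdk4*, which was not called, are shown to compare their motifs. They were searched on both strands for E2F words (TTCCCGC as well as TTCGCGC, and further TTGGCGC as well as TTGCCGC), for the cell cycle homology region, CHR (TTTGAA as well as TTCGAA), and for the CCAAT box, which are classical elements of cell cycle promoters. Capitals mark the matches in the windows of *Cdk1* (chr10:69352863-69353162, minus strand), *Ccnb1* (chr13:100786437-100786736, minus strand) and *Cdk4* (chr10:127063285-127063584, plus strand).
Cdk1: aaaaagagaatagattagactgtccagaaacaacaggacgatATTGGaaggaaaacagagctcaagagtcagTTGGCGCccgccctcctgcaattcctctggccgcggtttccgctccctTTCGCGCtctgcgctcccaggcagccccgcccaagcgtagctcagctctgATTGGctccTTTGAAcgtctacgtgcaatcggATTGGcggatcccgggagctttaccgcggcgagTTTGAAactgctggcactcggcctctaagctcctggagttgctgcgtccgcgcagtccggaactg
Ccnb1: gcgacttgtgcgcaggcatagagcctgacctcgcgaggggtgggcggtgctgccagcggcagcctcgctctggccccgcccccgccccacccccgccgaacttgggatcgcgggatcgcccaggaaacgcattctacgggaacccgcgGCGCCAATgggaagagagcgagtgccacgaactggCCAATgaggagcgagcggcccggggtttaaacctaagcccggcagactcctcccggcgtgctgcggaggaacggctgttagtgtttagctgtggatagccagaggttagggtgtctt
Cdk4: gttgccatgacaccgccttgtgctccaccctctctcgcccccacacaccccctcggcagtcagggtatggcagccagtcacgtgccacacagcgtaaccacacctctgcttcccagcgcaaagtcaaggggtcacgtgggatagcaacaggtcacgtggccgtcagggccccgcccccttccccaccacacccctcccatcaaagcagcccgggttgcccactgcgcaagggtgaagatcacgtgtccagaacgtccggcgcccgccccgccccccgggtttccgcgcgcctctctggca

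The *Cdk1* window held 2 E2F words, 2 CHR words at 71 and 15 bases before the start, and 3 CCAAT boxes on the opposite strand. The *Ccnb1* window held 2 CCAAT boxes at 99 and 67 bases before the start and 1 E2F word, which overlaps the first of them. The windows of *Ccne1*, *Cdk4* and *Cdk6* held no match, and of the 2 *Ccnd3* windows 1 held a single CCAAT box. An E2F word occurs in 9.57%, a CHR word in 19.2% and a CCAAT box in 37.4% of all 32851 windows, so a match is a description of the sequence only.

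*Cdk4* (chr10:127063534-127067920, plus strand), the main kinase of the D-type cyclins, was not called in any comparison on the deposited scale. It was 18647 and 18170 in MEF, 15795 and 16984 in the pre-iPS line and 15877 to 18695 with a median of 17244 in iPS libraries. Its log2 difference was 0.10 (SE 0.07, limma, adjusted p = 0.225) in MEF and -0.07 (SE 0.07, adjusted p = 0.473) in pre-iPS cells, each against iPS. The direction in MEF depended on the scaling, with 0.49 (adjusted p = 0.000255) after housekeeping scaling and -0.41 (adjusted p = 0.000603) after quantile normalization. Pre-iPS cells against MEF gave -0.17 (SE 0.09, limma, adjusted p = 0.114), without overlap of the libraries, and the same scalings gave -0.58 (adjusted p = 0.000376) and 0.36 (adjusted p = 0.00511). Of its 50-base stretches, 17.0% are shared with other annotated genes, among them its neighbour Tspan31.

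*Cdk6* (chr5:3341485-3531008, plus strand), the other kinase of the D-type cyclins, was the least abundant per length and followed the order of *Ccnd1*. MEF stood at 459 and 424, and pre-iPS cells at 1161 and 1442. It was 690 and 892 in the control line, 952 and 1202 for clone 1 and 1011 and 886 for clone 2. MEF lay below all other libraries, and pre-iPS overlapped with clone 1. Pre-iPS cells exceeded MEF 2.93-fold (log2 1.55, SE 0.18, limma, adjusted p = 6.08e-05) and iPS cells 1.40-fold (log2 0.48, SE 0.14, adjusted p = 0.0284), and MEF were 2.10-fold below iPS cells (log2 -1.07, SE 0.14, adjusted p = 0.000129). The call of pre-iPS against iPS was lost without the pre-iPS library at passage 25 (log2 0.33, adjusted p = 0.222), without clone 2 at passage 25 (log2 0.45, adjusted p = 0.0547) and after quantile normalization (log2 0.42, adjusted p = 0.0645). Per kilobase of exon *Cdk6* was 0.554% ± 0.0213 of the *Cdk4* plus *Cdk6* level in MEF, 1.81% ± 0.181 in pre-iPS cells and 1.05% to 1.46% in the iPS lines.

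**Figure D3:**
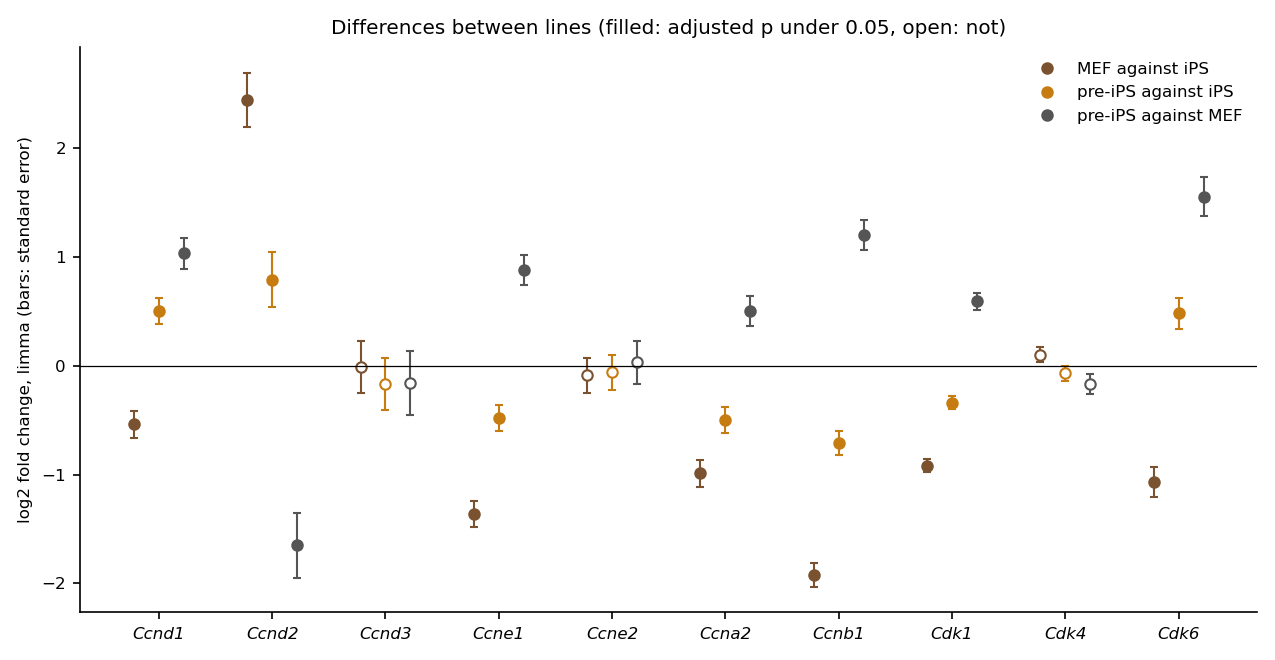
Log2 fold change (limma, bars are the standard error) of each gene in MEF against iPS, pre-iPS against iPS and pre-iPS against MEF. Filled points had an adjusted p under 0.05 and open points did not. *Ccnd2* is the gene higher in MEF than in iPS cells, at 2.44, and *Ccnb1* is lowest there, at -1.92.

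To ask whether derivation with Netrin-1 altered these genes, clones 1 and 2 (4 libraries) were compared with the control line (2 libraries). By limma none of the 10 genes was called, beside 4.08% of all genes tested. An unadjusted p under 0.05 was given by 1 of the 10, *Cdk6*, beside 3066 of all 17075 genes. The share of all genes called depends on the lines in the fit, with 697 called using all 5 lines and 169 using the compared lines only. On the recovered reads edgeR and DESeq2 called none of the 10 either. There, 0 and 1 of the 10 had an unadjusted p under 0.05, beside 3109 and 2985 of all genes. The libraries of the clones and of the control overlapped for all 10 genes, whereas 21.3% of all genes did not overlap. The values furthest from 0 were those of *Ccnd2* (log2 0.50, SE 0.26, limma, adjusted p = 0.376), *Cdk6* (log2 0.36, SE 0.15, adjusted p = 0.266) and *Ccnd1* (log2 0.28, SE 0.13, adjusted p = 0.294). *Ccna2*, *Ccnb1*, *Cdk4*, *Ccne1*, *Ccne2* and *Ccnd3* lay between -0.11 and -0.01, with standard errors of 0.08 to 0.26, and *Cdk1* was at 0.00 (SE 0.07). With the passage as a replicate block *Ccnd2* was called, with the same value of 0.50 (SE 0.12, limma, adjusted p = 0.0433). It was 1 of the 10 genes, beside 1327 of all 17075 genes called in that fit.

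The clones were also compared singly, and no member was called by limma for clone 1 (beside 2.48% of all genes) or clone 2 (beside 4.15%). In a fit of the compared lines only, the genes called fell from 424 to 0 for clone 1 and from 709 to 17 for clone 2. At an unadjusted p under 0.05 there were 3 members for clone 1, by limma, edgeR and DESeq2 alike. Of all 17075 genes, 2937, 3013 and 2870 reached it by the same tools. Clone 1 was 0.78 above the control in *Ccnd2* on the log2 scale (SE 0.30, limma, adjusted p = 0.242). The replicate block brought this to an adjusted p of 0.022, in a fit that called 1009 of all genes. Clone 1 was 0.44 above the control in *Ccnd1* (SE 0.14, adjusted p = 0.165) and 0.45 in *Cdk6* (SE 0.18, adjusted p = 0.247). For clone 2 the same differences were 0.23 (SE 0.30, adjusted p = 0.753), 0.11 (SE 0.14, adjusted p = 0.737) and 0.27 (SE 0.18, adjusted p = 0.47). Between the clones no member was called by limma, beside 1.59% of all genes. None had an unadjusted p under 0.05, beside 2831 of all 17075 genes. The exact permutation test of 4 against 2 libraries cannot give a p under 0.0667, and with 1 control line the line and the treatment cannot be told apart.

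Time in culture was compared within the 4 reprogrammed lines. At passage 25 against passage 5, 3 of the 10 genes were called, all lower, beside 10.9% of all genes called and 7.63% called lower (3.31% were called higher). None changed 2-fold, beside 1.69% of all genes. *Ccnd3* fell by 0.59 on the log2 scale, or 1.50-fold (SE 0.05, limma, adjusted p = 0.0017), with decreases of -0.65 in pre-iPS cells, -0.61 in the control line, -0.62 for clone 1 and -0.48 for clone 2. *Ccnd2* fell by 0.57 (SE 0.09, adjusted p = 0.014), with -0.56, -0.21, -0.69 and -0.82 in the same order. *Ccne1* fell by 0.25 (SE 0.05, adjusted p = 0.0289), with -0.29, -0.20, -0.35 and -0.15. Of the 10 genes, only these 3 were lower in 4 of 4 lines, beside 20.9% of all genes. The exact sign-flip test over 4 lines gives its smallest possible p of 0.125 for each of the 3. *Ccnd3* kept its call without any 1 library and in the 3 iPS lines alone. Leaving out 1 library takes the passage difference of its whole line out of the fit, so either library of a line gives the same check. Without a pre-iPS library, the difference thus rests on the same lines as in the fit of the 3 iPS lines. The values of *Ccnd2* and *Ccne1* stayed between -0.57 and -0.53 and between -0.23 and -0.21, but were not called, in the 3 iPS lines alone (adjusted p = 0.0742 and 0.124), without either library of pre-iPS cells (highest adjusted p = 0.068 and 0.12) and without either library of clone 1 (highest adjusted p = 0.096 and 0.176).

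The late cyclins and *Cdk6* gave positive values that were not called. *Ccna2* differed by 0.22 between passages (SE 0.07, limma, adjusted p = 0.0939), *Ccnb1* by 0.16 (SE 0.09, adjusted p = 0.261) and *Cdk6* by 0.21 (SE 0.10, adjusted p = 0.24), each higher in 3 of 4 lines. *Ccna2* was called without either library of the control line (log2 0.29, adjusted p = 0.0402 at most), after quantile normalization (log2 0.27, adjusted p = 0.0443) and with DESeq2 (log2 0.23, adjusted p = 0.038). *Cdk6* was called without either library of clone 2 (log2 0.34, adjusted p = 0.0484 at most), whose own difference was -0.19. *Ccnd1* went from 15954 to 21964 in the control line and from 21871 to 18772 in clone 2, and *Ccne2* went from 356 to 513 and from 421 to 321 in the same lines. In MEF, passage 4 minus passage 2 was between -0.12 and 0.06 on the log2 scale for the 10 genes.

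Other cell cycle genes were called between the passages as well, beside 3.31% of all genes called higher and 7.63% called lower. These calls depend on the libraries, since over all genes they numbered 1869 with all libraries and 233 without clone 1 at passage 5, 244 without clone 1 at passage 25, 497 and 510 without the pre-iPS library at passage 5 and 25, and 1051 and 1049 without that of clone 2. The lists were not counted again without these libraries. Of the 7 CDK inhibitors, 3 were lower at passage 25 (Cdkn2b, Cdkn2d and Cdkn1a) and none higher. Of the E2F, pocket protein and DREAM genes, 4 of 17 were higher (Foxm1, E2f7, E2f8 and E2f3), and of the mitosis and proliferation genes 3 of 10 (Mki67, Cenpe and Plk1), with none lower in either list. The remaining cell cycle lists had few calls. Lower were 1 of 16 other cyclins, 1 of 15 other CDKs and 1 of 9 CDK phosphatases, kinases and Cks subunits. Of 11 licensing genes 1 was higher, and of 8 genes of cyclin destruction 0 were called. Of the markers of other cells, 2 of 5 for macrophages (Csf1r and Cd68) and 2 of 4 for smooth muscle (Acta2 and Tagln) were lower at passage 25 and 1 of 10 for fibroblasts (Pdgfra) was higher, and their part in the passage differences was not tested.

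**Figure D4:**
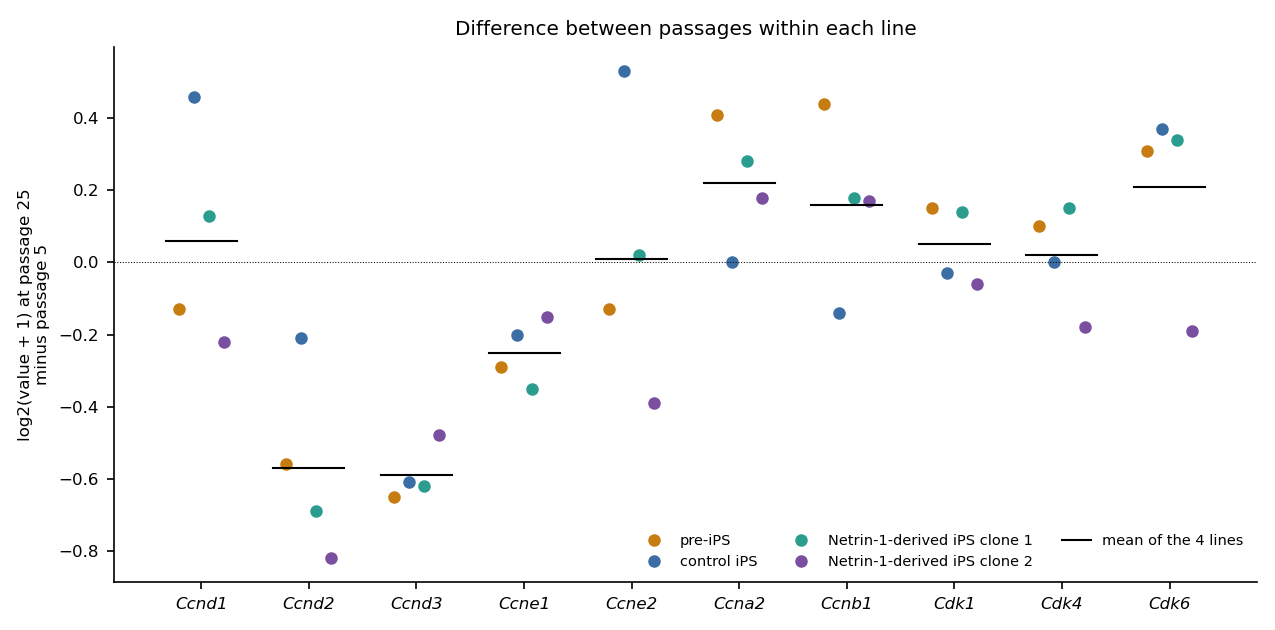
Log2(value + 1) at passage 25 minus passage 5 for each gene in each of the 4 reprogrammed lines, with the mean of the 4 as a line. *Ccnd2*, *Ccnd3* and *Ccne1* lie below 0 in all 4 lines, and *Ccnd1* and *Ccne2* lie on both sides of 0.

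The wider cell cycle machinery was counted in lists of related genes, whose counts stand beside the 79.3% of all genes called in MEF against iPS and the 39.6% called in pre-iPS against iPS. The kinases and phosphatases that set CDK activity and the Cks subunits were lower in MEF for 8 of 9 genes and higher for none, with Cks2 3.04-fold lower (log2 -1.60, SE 0.08, limma, adjusted p = 2.02e-07) and Pkmyt1, which inhibits Cdk1, 2.94-fold lower (log2 -1.56, SE 0.14, adjusted p = 9.24e-06). The CDK inhibitors went the other way, with 6 of 7 higher in MEF and none lower. Cdkn2b, an inhibitor of Cdk4 and Cdk6, was 6.93-fold higher in MEF (log2 2.79, SE 0.22, adjusted p = 4.13e-06) and 1.86-fold higher in pre-iPS than in iPS cells (log2 0.90, SE 0.22, adjusted p = 0.0127). Cdkn2c, of the same family, was 4.36-fold higher in MEF (log2 2.12, SE 0.26, adjusted p = 5.87e-05). Cdkn2a was 1.69-fold higher in pre-iPS than in iPS cells (log2 0.76, SE 0.15, adjusted p = 0.00415), and 4 of the 7 inhibitors were higher there. Of the genes that carry out or regulate cyclin destruction, 7 of 8 were lower in MEF, led by Cdc20 (3.82-fold, log2 -1.93, SE 0.07, adjusted p = 6.88e-08). In pre-iPS cells 4 of 8 were lower, led by Fbxo5 and Ube2s (1.70-fold and 1.69-fold). These directions held under housekeeping scaling and quantile normalization, except that 1 gene of cyclin destruction was called higher in MEF after the former and 1 inhibitor lower in pre-iPS cells after the latter.

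Replication licensing and mitosis genes were lower in MEF. All 11 licensing genes were lower in MEF and all 11 were lower in pre-iPS than in iPS cells, with medians of -1.85 and -0.57 on the log2 scale beside -0.09 and 0.00 over all genes, and with the same counts after housekeeping scaling and quantile normalization. Cdt1 was 6.13-fold lower in MEF (log2 -2.62, SE 0.12, limma, adjusted p = 1.43e-07), and Orc1 was 4.95-fold lower in MEF and 2.25-fold lower in pre-iPS cells. Of 10 mitosis and proliferation genes, 10 were lower in MEF (9 after housekeeping scaling) and 5 in pre-iPS cells, with the kinase Bub1 3.96-fold and 1.99-fold lower. Among E2F, pocket protein and DREAM genes, 11 of 17 were lower and 2 higher in MEF. Mybl2 was 10.1-fold lower in MEF (log2 -3.33, SE 0.15, adjusted p = 1.53e-07) and 3.28-fold lower in pre-iPS cells, while E2f2 was 7.70-fold lower in MEF and 1.81-fold higher in pre-iPS cells. The pocket protein Rbl2 was 2.48-fold higher in MEF, and Rb1 1.85-fold higher in pre-iPS cells than in iPS cells (log2 0.89, SE 0.10, adjusted p = 0.000228). After housekeeping scaling the split of this list in MEF was 5 higher and 6 lower.

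The other cyclins and CDKs were more mixed. Of 16 other cyclins tested, 5 were higher and 8 lower in MEF against iPS, and 8 higher and 5 lower after housekeeping scaling. Ccng1 was 1.90-fold higher in MEF and 1.30-fold higher in pre-iPS cells, and Ccnf, an F-box protein, was 1.99-fold lower in pre-iPS cells (limma, adjusted p = 0.000236). The largest decreases were those of Ccno, 6.07-fold in MEF and 14.6-fold in pre-iPS cells, and of Ccna1, 5.49-fold in MEF. Of 15 other CDKs, 8 were higher and 3 lower in MEF, 4 were higher and 4 lower after quantile normalization, and 11 were higher and 1 lower after housekeeping scaling. Cdk14 had the largest increase in MEF, 3.44-fold (log2 1.78, SE 0.16, limma, adjusted p = 1.06e-05). Cdk2, the partner of cyclins E and A, was 1.69-fold lower in MEF (log2 -0.76, SE 0.09, adjusted p = 4.78e-05) at 2018 ± 80.7 (SD, n = 2) against 3428 ± 429 (SD, n = 6). Between the 'Netrin-1-derived' clones and the control line no gene of the inhibitor, licensing, mitosis, destruction or phosphatase and kinase lists was called, while Ccno and Cdk12 were lower and Cdk16 and Rbl2 higher in the clones. No gene of the lists of other CDKs and of E2F, pocket protein and DREAM genes was called higher there after quantile normalization. The calls of single list genes in the clones were not examined in a fit of the compared lines only.

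**Figure D5:**
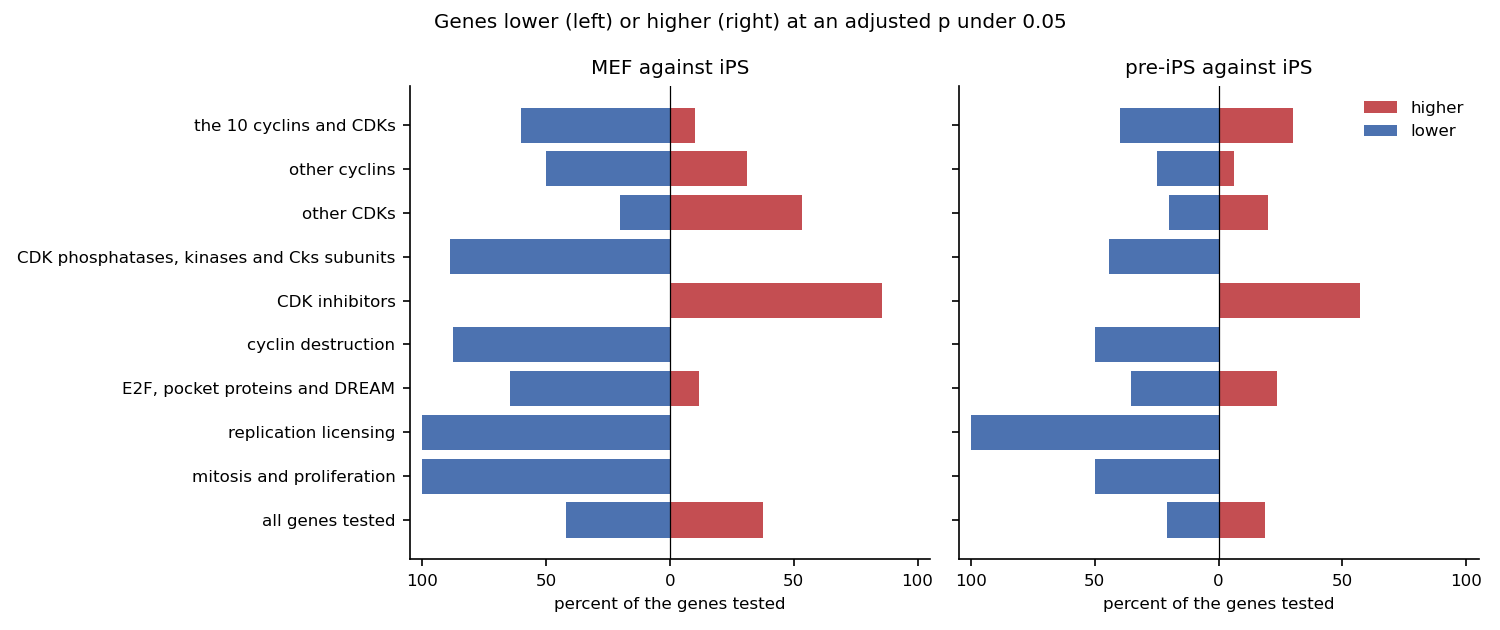
Percent of the genes of each list that were lower (to the left) or higher (to the right) at an adjusted p under 0.05 (limma), in MEF against iPS and in pre-iPS against iPS, with all 17075 genes at the bottom. All 11 licensing genes are lower in both comparisons, and the CDK inhibitors that were called are higher in both.

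Genes with the most similar profile were found by the Euclidean distance between centred log2(value + 1) values over the 10 libraries, which share the contrast of MEF with the other lines. Among the nearest to *Ccnb1* were Ncapg and Kif18a (distances of 0.266 and 0.281, against a median of 2.94 over all genes), and nearest to *Ccna2* were Fubp1, Kif20a and Tacc3 (0.177 to 0.215, median 2.18). *Cdk1* was nearest to Srsf3, Nup107 and Tuba1b (0.178 to 0.200, median 2.07), and *Ccne1* to Nip7, Mrpl15 and Orc2 (0.258 to 0.329, median 2.43). For *Ccnd2* the nearest were Prkcdbp, the inhibitor gene Cdkn2b and Mustn1 (0.524 to 0.617, median 3.57). *Ccnd1* was nearest to Nabp2, Mars2 and Mecr (0.320 to 0.389, median 2.03), *Ccnd3* to Ncoa4, Trip10 and Tbrg1 (0.234 to 0.374, median 1.85) and *Cdk6* to Itgb3bp, Snord52 and Zfp239 (0.304 to 0.422, median 2.43). *Ccne2* and *Cdk4* varied little, and their nearest genes (Tma7, Ppp1r14b and Pole3, and Hnrnpul2, Dip2b and Senp6) lay at 0.350 to 0.362 and 0.149 to 0.181.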

How the data were processed

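Poly(A) RNA of 10 libraries was sequenced as 50-base single reads on 1 lane. Per the labels' processing notes, the tools named were CASAVA 1.8.2, FastQC, TopHat2 2.0.8b, HTSeq 0.5.3p9 and edgeR, with build mm10, and the kit did not mark strand. The deposited signal values are edgeR pseudo-counts, counts per gene that the authors adjusted to a common library size. The MEF values behaved as adjusted with both MEF libraries as 1 group, so that each depends on both. Columns were matched to samples by name.

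Values were analysed with limma 3.58.1 (R 4.3.3) on log2(value + 1) for the 17075 genes with at least 10 in at least 2 libraries. One model of the 5 lines gave the comparisons of lines. Passages were compared with the line as block. P-values were adjusted by Benjamini-Hochberg over all genes tested. Whole reads were recovered from the pseudo-counts for at least 99.99% of values in each library (tolerance 0.1 reads) and tested with edgeR 4.0.16 and DESeq2 1.42.0, and edgeR called 13429 genes in MEF against iPS. The limma test was tried on simulated data. Deviations of same-passage libraries correlated between the 6 pairs of lines (mean 0.353, 0.235 to 0.504), and the labels give the passage, so the passage served as replicate block in an alternative.

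All 10 genes were named. From each list, up to 2 genes with the largest increase and decrease and no overlap were eligible, plus the 3 nearest profiles of each member, of which 1 is not reported here. Genes named outside this rule (passage and clone comparisons of the lists) were picked knowing their values. The members and lists were chosen with earlier results of these data known. Alternatives were other pseudocounts (0.5 and 5), filters (none, or a mean of 50), scalings, tools and libraries left out. Gene positions are from GENCODE M21 (GRCm38), which need not be the annotation the authors counted on.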

Additional observations from a re-analysis of the deposited data

Results flagged for a closer look

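Between passages 5 and 25, *Ccnb1* was lower in the control line and higher in both 'Netrin-1-derived' clones. Its log2 difference was -0.14 in the control, 0.18 for clone 1 and 0.17 for clone 2, so that the clones lay 0.31 above the control. *Ccna2* also had opposite signs, but its control value was -0.00 (7190 and 7172), beside 0.28 and 0.18 in the clones, a distance of 0.23. The pre-iPS line gave 0.44 for *Ccnb1* and 0.41 for *Ccna2*, so positive values were not particular to the clones. The difference between the lines was not tested in either gene, since the control is 1 line.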

How the results depend on the processing

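At an added 2-fold limit the members called numbered 4 in MEF against iPS, 0 in pre-iPS against iPS, 4 in pre-iPS against MEF and 0 between passages. Leaving out 1 library at a time gave 4 to 7 in pre-iPS against iPS, 6 to 7 in pre-iPS against MEF and 1 to 4 between passages. The 4 without the pre-iPS library at passage 5 were *Ccne1*, *Ccnb1*, *Cdk1* and *Cdk6*. Between passages *Ccnd3* alone was called without any library of pre-iPS cells or clone 1, and in the 3 iPS lines alone (1 gene), a setting chosen after seeing the data. With the passage as a replicate block, 1 gene (*Ccnd2*) was called in the clones against the control and 1 in clone 1 against the control. Over all genes these fits called 1327 and 1009. Besides these *Ccnd2* calls and *Ccnd3* in pre-iPS against iPS, the block changed no call among the members. *Cdk4* reversed after quantile normalization, to -0.41 in MEF against iPS and 0.36 in pre-iPS against MEF, and the cause was not tested. With the longest transcript as length, the *Ccnd1* share was 32.4% in MEF, 68.1% in pre-iPS, 62.3% in control, 66.5% in clone 1 and 63.2% in clone 2. In the same order that of *Ccnd3* was 16.4%, 15.2%, 26.4%, 18.2% and 24.3%, and that of *Cdk6* 0.425%, 1.39%, 0.811%, 1.13% and 0.951%. The *Ccne2* share was 11.5% in MEF, 6.68% in pre-iPS and 4.50% in clone 2. Among the values of single members under an alternative, 1509 kept their side of the threshold, 28 lost the call and 11 gained one. The *Cdk4* values after quantile normalization, 2 in number, were called in the opposite direction. Values not called could change sign among the 1509, as *Ccnd3* in MEF against iPS did, from -0.01 to 0.38 after housekeeping scaling. With 2 libraries per line, the smallest differences cannot be told from the spread between passages, and *Ccne2* rests on as few as 328 reads.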
